A study of Mus musculus with 9 samples.

Results

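Supplementing Nrf2-/- lung cell cultures with GSH (glutathione) was examined by comparing 3 arrays of supplemented knockout cells with 3 arrays of knockout cells grown without it, which is 6 of the 9 arrays in the study. The 6 arrays were taken by their titles, as replicates 2, 3 and 4 of each group. All of them carry the same genotype, Nrf2-/-, so the contrast shows GSH against no GSH in the absence of Nrf2 and does not touch the genotype itself. The cells are labelled type II cells from the lungs of female ICR10 mice aged 2 months, freed with Dispase, depleted of macrophages on IgG-coated plates and of fibroblasts by adherence, and then cultured for 5 days with keratinocyte growth factor on a coat of fibronectin and collagen. The labels name the supplement but give no dose, time or purpose for it, leave unclear whether the cells or the mouse received it, and state in the treatment field of every array that nothing was done. The other 3 arrays hold Nrf2+/+ cells of the same strain, age and culture, and their signals are quoted only as levels beside the knockout values. RNA was hybridised to Affymetrix Mouse 430 2.0 arrays, on which a probe set is a group of short probes read as 1 signal in arbitrary units.

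Nrf2, the product of Nfe2l2, is a transcription factor that responds to oxidants and electrophiles by switching on genes for glutathione synthesis, NADPH supply and detoxification. Glutathione is the cell's main small thiol: it reduces peroxides, is joined to electrophiles by glutathione S-transferases, and outside the cell can be broken down to release cysteine. Type II cells make surfactant and renew the alveolar lining, and in culture they flatten and lose much of their surfactant expression while type I and transitional epithelial genes appear.

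Signals had been scaled to the same trimmed mean of 500 on every array, and the median signal ran from 102.4 to 142.6 over the 6 arrays. A control level was set on each array from bacterial control probe sets with no target in the samples, and 63.11% to 70.78% of probe sets lay above it. Nfe2l2 was near that level in both knockout groups: its brighter probe set read 73.6, 77.4 and 28.7 on the knockout arrays and 45.3, 46.2 and 33.3 with GSH, against 3980 ± 167 (mean ± SD, n = 3) in wild type. A dim Nfe2l2 probe set, which the signal filter left out, read 37, 68.6 and 34.4 without and 189, 134 and 121 with GSH, against a mean of 42.2 in wild type, with the groups of knockout arrays apart. The difference between the knockout groups there had a limma adjusted p = 0.014 when no filter was used, and no source used here says whether its target was deleted. Xist, the RNA that silences an X chromosome, was expressed in both knockout groups. Its brightest probe set read 3203 ± 1248 without and 3510 ± 1112 with GSH (limma adjusted p = 0.18), but another read 1360.5, 1148 and 377 without and 2729, 2557 and 698 with GSH and was called higher (log2 difference 1.02, limma adjusted p = 2.9e-05). The groups overlap there, with the replicate 4 array the lowest of each. For the Y-linked genes Eif2s3y (means 9.27 without and 7.43 with GSH) and Kdm5d, the probe sets brightest in wild type did not exceed the control level on any of the 6 arrays. Other Kdm5d probe sets did so on 1 knockout array and on 1 GSH array. A probe set of the Y-linked Uty (means 59.5 without and 42.6 with GSH, 324 in wild type) did so on 2 knockout arrays and 1 GSH array. The wild-type arrays, labelled female as well, read 801 for Eif2s3y and 311 for Kdm5d and 14.7 to 34.2 for the second Xist probe set, so their sex-linked genes go against that label. Each wild-type level quoted below therefore comes from arrays that differ from the knockout arrays in these genes too. The title code carries a second number, called the set here, which places replicates 2 and 3 of both groups in set 2 and replicate 4 of both in set 3. No source says what it stands for, and it enters the model as a block. The labels give each array n = 1 and 1 tissue without saying that arrays of a group came from separate mice or cultures, so the p-values speak only of the spread among arrays, which may be technical.

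Cultures with and without GSH differed in a large share of the transcripts measured. Of 22519 probe sets that passed a filter on low signal, 7005 (31.1%) were called at a limma adjusted p under 0.05, 3703 (16.4%) higher and 3302 (14.7%) lower with GSH. Differences are log2 differences of GSH minus no GSH, and 730 probe sets (3.24%) were called at 2-fold or more higher and 1055 (4.68%) at 2-fold or more lower. With no block for the set, 3723 were called, and without the supplemented replicate 4 the number higher was 2409. The 3 values of a group lay apart from the 3 of the other for 7510 probe sets (33.3%), and 5718 of those called were among them. The first principal component of the 6 arrays held 57% of the variance and put the GSH arrays at 39.9 to 50.3 and the knockout arrays at -53.7 to -41.9. The second, with 27.3%, held the difference between the sets. The median difference over all probe sets tested was 0.05, with changes in both directions around it. With 1 probe set per gene, that of the highest mean, 11578 genes were tested, of which 2064 (17.8%) were higher and 2009 (17.4%) lower, with a median of 0.02. At 2-fold or more 419 genes (3.62%) were higher and 614 (5.3%) lower. These shares are the background for every gene list below. The filter used the mean log2 signal of both groups, with a threshold at a geometric mean of 118.9. A gene below it in 1 group passed only through the other, so counts and medians of dim lists lean toward changed members. Among the genes that passed through their GSH arrays were Krt17, Wnt7a, Nrg1, Col4a4, Lce1h, Sdcbp2, Slc6a14, Pkp1, Cldn1, Nat8l, Itgb4 and Akap5. Cdh3, Npr3, Kcne4, Ms4a4d, Mrc2, Gzme, Cd248, Medag, Nid2, Dkk3, Itga8 and Tbx4 were among those that passed through their knockout arrays. Many of the largest rises and falls below are of this kind.

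**Figure D1:**
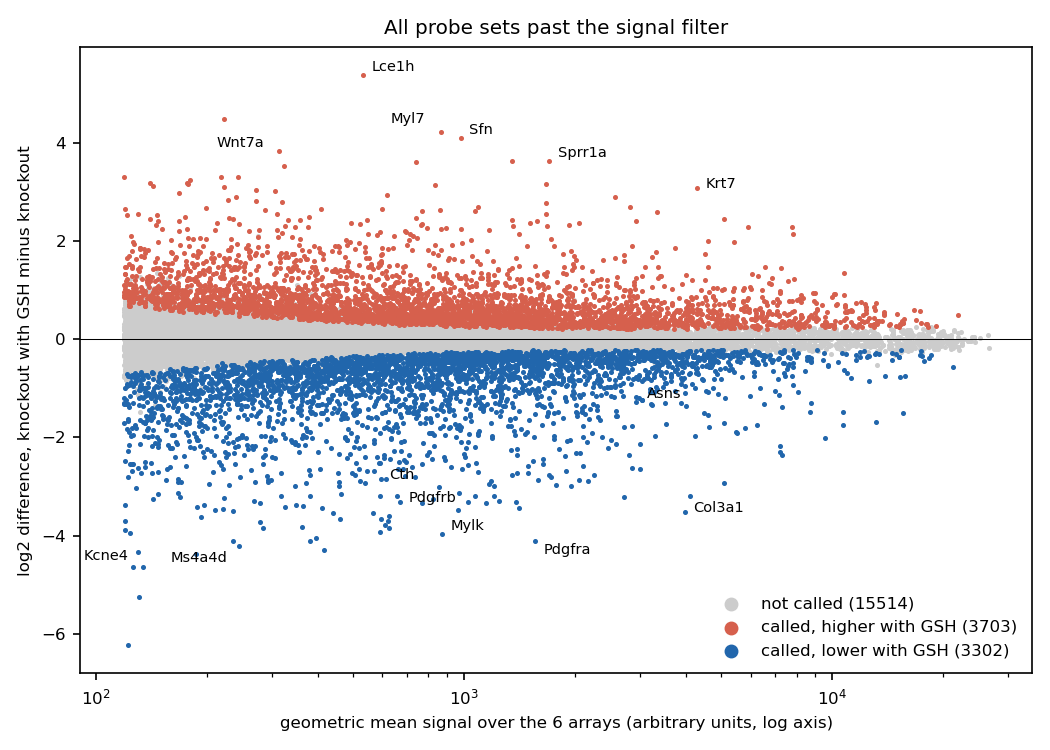
Log2 difference (knockout with GSH minus knockout, vertical axis) against the geometric mean signal of the 6 arrays (horizontal log axis) for the 22519 probe sets tested, 1 point each. The 3703 called higher are red, the 3302 called lower are blue and the rest grey; the points reach from -6.23 for a dim Prelp probe set to 5.38 for Lce1h.

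The change recurred in the set that was analysed apart. Fitted on set 2 alone (2 arrays against 2), the number called was 5055, of which 97.5% went the same way in the single pair of set 3, against 69.2% of the 17464 not called. Among 1810 called in set 2 at 2-fold or more, 98.7% had the same direction, and the median size was 1.44 in set 2 and 1.41 in set 3. Set 3 has 1 array in each group, so its differences have no test of their own.

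**Figure D2:**
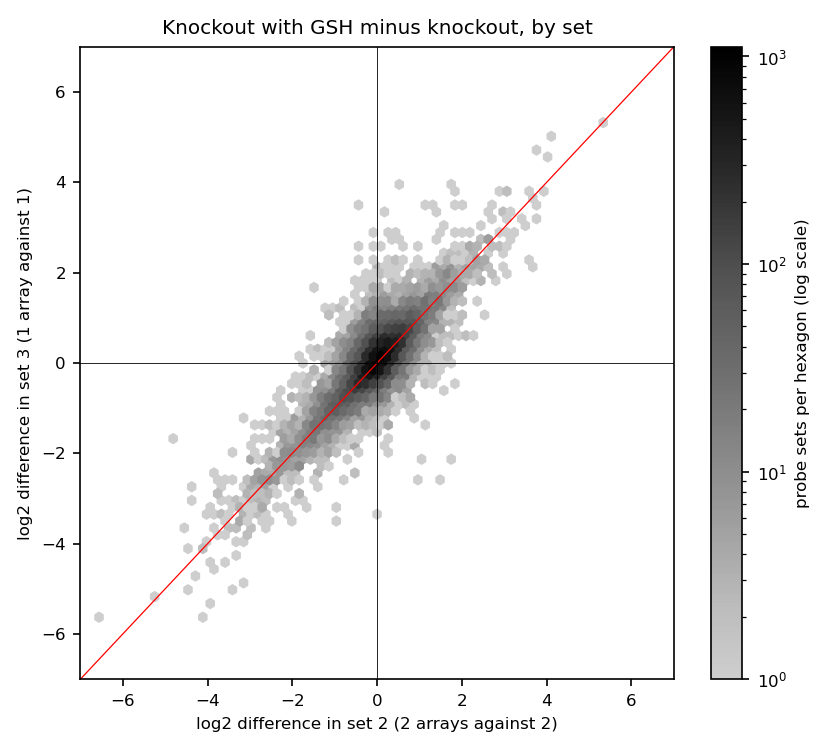
Log2 difference in set 3 (1 array against 1, vertical axis) against that in set 2 (means of 2 arrays against 2, horizontal axis) for all probe sets tested, with darker hexagons holding more probe sets on a log scale and the red line marking equality. Large differences lie along the line in both directions, and few hexagons fall in the upper left or lower right corner.

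Markers of the cell types that such a culture could hold moved in different directions. Epithelial and macrophage markers were higher with GSH, and fibroblast, smooth muscle and most mesothelial markers lower. RNA came from whole cultures, so fewer cells of a type and less RNA per cell cannot be told apart. Of 14 markers of the transitional epithelial state measured, 13 rose and 0 fell, with a median of 1.55. Their summed signal ran from 55473 to 62452 on the knockout arrays and 119305 to 142279 with GSH. This list shares Krt7, Krt8, Krt18 and Krt19 with the keratins, Cldn4 with the junction genes and Sfn with the squamous and p53 genes below. It also shares Anxa8 with the squamous genes, Itgb6 with the integrins, Hbegf with the EGF receptor family and Plaur with the matrix metalloproteinase list. Those rises are therefore not separate results. Krt18 (mean 3511 to 17204) and Krt8 (3698 to 16470) are part of the sum. Fibroblast and mesenchymal markers had 1 higher and 16 lower of 19, a median of -2.14, and a summed signal of 125626 to 159893 on the knockout arrays and 64629 to 72997 with GSH. Macrophage markers had 16 higher and 1 lower of 25, a median of 0.44, and a summed signal of 156975 to 181575 on the knockout arrays and 213998 to 246077 with GSH. For each of these 3 lists the sums of the groups did not overlap.

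Surfactant genes, which define type II cells, were dim in both groups. Sftpc, surfactant protein C, read 67.3, 145 and 55.1 without and 132, 118 and 73.8 with GSH, and Sftpa1, surfactant protein A, 100.3, 72.4 and 76.1 and 108, 91.6 and 78.8. Nkx2-1, the transcription factor of lung epithelium, read 88, 88.8 and 54.8 and 157, 139.6 and 88. These 3 lay above the control level on every array but below the signal filter, and their groups overlapped. Of 13 type II markers that passed it, 7 rose and 0 fell (median 0.63), and their summed signal overlapped, from 55764 to 74252 on the knockout arrays and 64179 to 78642 with GSH. Those that rose included Napsa, the protease that matures surfactant proteins (415 to 1030, log2 difference 1.31), Muc1 (1.26), Cldn18 (1.12) and the lamellar body transporter Abca3 (0.67). Sftpb differed by 0.63 with a limma adjusted p = 0.16. The list also holds Cd74 (1.89), which antigen-presenting cells express, and the lysozyme genes Lyz1 and Lyz2, which macrophages share; Lyz2 read 21416 without and 20631 with GSH on average, and neither passed the test. Type I markers had 7 higher and 1 lower of 14 (median 0.56): Gprc5a rose from 757 to 3752, Akap5 from 117 to 478 and Col4a4 from 80 to 364, while Vegfa fell by 0.88. Ager, a defining type I gene, stayed below the filter.

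Genes of other lung cells were measured the same way. Scgb1a1, the secretoglobin of club cells, read 283, 286 and 274 without and 2343, 2409 and 2719.5 with GSH, an 8.84-fold rise (log2 difference 3.14, SE 0.10, limma adjusted p = 2.2e-08), with all arrays of one group above all of the other. Its wild-type mean was 6725 ± 869. Of 12 club cell genes 4 passed the filter, and Scgb3a1 was not called. Aldh1a1 (0.54) passed the threshold too, but kept its call in 8 of 17 alternatives and lost it without any 1 array other than knockout replicate 3, and Hp (-0.42) lost its call without replicate 4 of either group. Among 11 alveolar macrophage markers 7 rose and 1 fell (median 0.86), with a summed signal of 24349 to 25646 on the knockout arrays and 33012 to 33582 with GSH. Siglecf, a lectin receptor of alveolar macrophages, read 123, 146 and 131 on the knockout arrays and 486, 406 and 659 with GSH (log2 difference 1.93, SE 0.19, limma adjusted p = 3.4e-05). Itgax, the integrin CD11c, read 896, 821 and 1024 on the knockout arrays and 3203, 3415 and 3544 with GSH (log2 difference 1.89, SE 0.08, limma adjusted p = 1.3e-07). Both genes had every GSH array above every knockout array. Trem2 (1.55) and Gpnmb (1.34), genes of lipid-laden and lysosome-rich macrophages, led the general macrophage list. Fabp4, a fatty acid binding protein of alveolar macrophages, fell by 1.04. Mesothelial markers split: Upk3b, Wt1, Lrrn4, Aldh1a2, Upk1b and Cpe fell, from -2.71 for Upk3b to -0.69 for Cpe (Upk3b being above the control level on 1 of 3 GSH arrays), and Msln, mesothelin, rose from 944 ± 105 to 7052 ± 473 (log2 difference 2.91) together with Krt19; the summed signal of the list was 13406 to 14641 on the knockout arrays and 19800 to 20925 with GSH. Smooth muscle and myofibroblast genes had 0 higher and 8 lower of 11, with a summed signal of 68604 to 83893 on the knockout arrays and 50933 to 56714 with GSH. Mylk, the myosin light chain kinase, fell (-3.97), as did desmin (Des, -1.96) and, from a bright 20890, smooth muscle actin (Acta2, -0.33). Of 11 endothelial markers 2 rose and 3 fell. The 5 neutrophil markers had 1 rise, and 0 without replicate 4 of either group; the 3 lymphocyte markers measured had no call and neither had the single ciliated cell marker. Of 3 basal cell markers Itga6 and Krt17 rose and Snai2 fell, while Trp63 and Krt5, which define basal cells, stayed below the filter.

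The largest rises were led by genes of squamous and simple epithelia. Lce1h, a late cornified envelope gene, read 87.5, 85.7 and 74.7 on the knockout arrays and 3876, 3512 and 2944 with GSH. Its GSH arrays stood far above all knockout arrays and above the wild-type mean of 1329, a 41.5-fold rise (log2 difference 5.38, SE 0.11, limma adjusted p = 1.2e-08), though this probe set can bind related Lce transcripts. Myl7, a myosin light chain known from the heart atrium, read 238, 195 and 171 on the knockout arrays and 3568, 3726 and 3947 with GSH, with no overlap and a wild-type mean of 3058 (log2 difference 4.23). Sfn, the epithelial 14-3-3 protein stratifin, read 275, 399 and 119.9 on the knockout arrays and 4694, 4622 and 3103 with GSH. The groups lay well apart although knockout arrays differed among themselves by several fold (log2 difference 4.11, SE 0.19, limma adjusted p = 1.7e-07). Wnt7a, a Wnt ligand of epithelia, read 69.5, 108 and 75.8 on the knockout arrays and 1212, 1313 and 1047 with GSH (log2 difference 3.84, SE 0.18, limma adjusted p = 2.4e-07). Sprr1a, a small proline-rich protein of the cornified envelope, read 537, 471 and 448 on the knockout arrays and 5917, 5991 and 6127 with GSH (log2 difference 3.64, SE 0.09, limma adjusted p = 1.2e-08). For all of these the GSH arrays stood above the knockout arrays without exception. Mab21l4 rose by 3.62, Sdcbp2, the scaffold protein syntenin-2, by 3.54, Krt17 by 3.31, the amino acid transporter gene Slc6a14 by 3.30, the desmosome plaque gene Pkp1 by 3.25, Cldn1 by 3.19 and Nat8l, which makes N-acetylaspartate, by 3.17. On the knockout arrays Sdcbp2 and Cldn1 exceeded the control level on 2 of 3 arrays and Pkp1 and Nat8l on 1 of 3, so the folds of these 4 rest on a signal close to background.

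The largest falls were led by genes of mesenchymal cells. Pdgfra, the PDGF receptor alpha of lung fibroblasts, read 5543, 5718 and 8588 on the knockout arrays and 382, 384 and 362 with GSH. The GSH arrays stood far below all knockout arrays, and also below the wild-type mean of 3336 (17.3-fold lower, log2 difference -4.11, SE 0.13, limma adjusted p = 2.2e-08). Npr3, the clearance receptor of natriuretic peptides, read 1401, 1409 and 2002 on the knockout arrays and 88.7, 91.9 and 95.1 with GSH (log2 difference -4.11, SE 0.14, limma adjusted p = 3.3e-08). Mylk read 3366, 3101 and 3901 on the knockout arrays and 229, 185 and 251 with GSH (log2 difference -3.97, SE 0.11, limma adjusted p = 1.4e-08). Neither gene had overlapping groups. Rspo3, a secreted enhancer of Wnt signalling, read 2280.4, 1833 and 3152 on the knockout arrays and 148, 124 and 246 with GSH (log2 difference -3.84, SE 0.13, limma adjusted p = 2.9e-08). Slit3, a secreted guidance ligand, read 2532, 2317 and 2072 on the knockout arrays and 176, 208 and 93.9 with GSH (log2 difference -3.93, SE 0.17, limma adjusted p = 1.1e-07). Cyp7b1, an oxysterol hydroxylase, read 2282, 1968 and 2558 on the knockout arrays and 153, 166 and 175 with GSH (log2 difference -3.78, SE 0.11, limma adjusted p = 1.7e-08). In these 3 the GSH arrays were low throughout and the groups did not meet. Kcne4, a potassium channel subunit (-4.33), Gzme, a granzyme (-3.88), and Cd248, endosialin of stromal cells (-3.83), exceeded the control level on 1 of 3 GSH arrays, so the sizes of these falls rest partly on background (Kcne4 ran from -5.12 to -3.22 over the alternatives that kept it), and Ms4a4d (-4.12) and Medag (-3.82) on 2 of 3. Mrc2, the collagen-internalising receptor Endo180, was at or below that level on all 3 and was at least 8.08-fold lower with GSH (limma adjusted p = 1.9e-05). Gzme was read by a probe set that can bind related granzymes. Where a gene had several probe sets the brightest was taken; dimmer probe sets gave larger differences for Prelp (-6.23), Sod3 (-5.24) and, upward, Itga3 (4.49). Over the 235 genes taken by the naming rule given below, none had called probe sets in opposite directions.

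**Figure D3:**
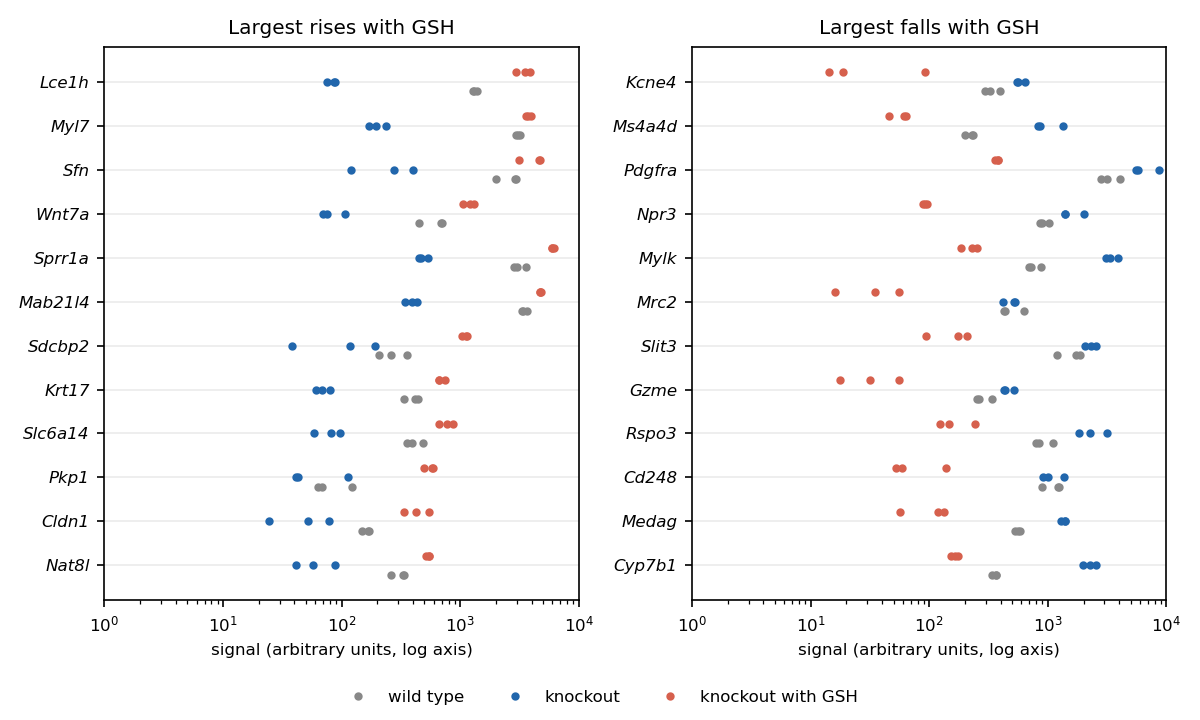
Signal in arbitrary units (horizontal log axis) on each array for the 12 largest rises (left) and 12 largest falls (right), 1 point per array, with wild type in grey, knockout in blue and knockout with GSH in red. In every row the 3 red points lie apart from the 3 blue ones. The grey points lie between them in most rows of both panels.

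Keratins of simple epithelia rose together. Of 10 keratin genes measured, 8 rose, each at 2-fold or more, and 0 fell, with a median of 2.22. The other 8 of 18 were too dim to test, Krt5, Krt14 and Krt15 of basal cells among them. Krt17, with a knockout mean of 69.6, passed the filter only through its GSH arrays. Krt7, a keratin of simple and glandular epithelia, read 1446, 1391 and 1609.7 on the knockout arrays and 13467, 12344 and 11666 with GSH, an 8.43-fold rise (log2 difference 3.08, SE 0.09, limma adjusted p = 1.5e-08). Krt18 read 3569.6, 3563 and 3402 on the knockout arrays and 18722, 17042 and 15849.6 with GSH (log2 difference 2.29, SE 0.07, limma adjusted p = 2.4e-08). Krt8, the partner of Krt18, read 3751, 3662 and 3683 on the knockout arrays and 17471, 15917 and 16022 with GSH (log2 difference 2.15, SE 0.07, limma adjusted p = 2.9e-08). In each the GSH arrays exceeded not only the knockout arrays but also the wild-type means of 8278 for Krt7, 12379 for Krt18 and 12448 for Krt8. Krt19 rose by 2.60, Krt80 by 2.35 and Krt17 by 3.31, while Krt10 and Krt23 missed the threshold. Of 13 cornified envelope and squamous genes 8 rose and 1 fell. Ivl, involucrin, rose from 277 ± 23 to 1267 ± 189 (log2 difference 2.19) and Tgm1, the transglutaminase that cross-links it, by 1.32, and Sbsn, suprabasin, fell by 1.17. Loricrin (Lor) differed by -0.44 with a limma adjusted p = 0.25, and Flg, Sprr3 and Trp63 were below the filter.

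Junction genes rose almost as a block. Of 26 claudins, tight junction and epithelial adhesion genes, 22 rose, 19 of them at 2-fold or more, and 2 fell (median 1.46). Cdh1, E-cadherin of adherens junctions, read 1996, 2046 and 3684 on the knockout arrays and 6302, 7511 and 11990.1 with GSH (log2 difference 1.75, SE 0.08, limma adjusted p = 2.3e-07). The set 3 arrays of both groups were brighter than those of set 2, and within each set GSH stood well above no GSH. Cldn4, a claudin of tight epithelia, read 1163, 1029 and 620.2 on the knockout arrays and 6254, 5952 and 2738 with GSH (log2 difference 2.37, SE 0.09, limma adjusted p = 7.6e-08). Cldn7 read 546, 545 and 660.4 on the knockout arrays and 3198, 3279 and 2905 with GSH (log2 difference 2.43, SE 0.10, limma adjusted p = 1.0e-07). Dsp, the desmosomal protein desmoplakin, read 477, 431 and 773 on the knockout arrays and 2088, 2208 and 3508 with GSH (log2 difference 2.22, SE 0.09, limma adjusted p = 6.9e-08). In all 3 the groups stayed apart. Epcam rose by 1.62, Ocln, occludin, by 1.44, Cgn, cingulin, by 1.97, and Tjp1, the scaffold ZO-1, by 0.44. The falls were Cldn12 (-0.74) and Cdh3. Cdh3, P-cadherin, read 891, 609.8 and 640.3 on the knockout arrays and 56.3, 51.7 and 87.1 with GSH (log2 difference -3.47, SE 0.24, limma adjusted p = 3.1e-06), so the cadherins Cdh1 and Cdh3 moved in opposite directions; the GSH signal of Cdh3 was above the control level on 1 of 3 arrays.

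Transcription factors divided largely, though not wholly, by the cell state they belong to. Of 30 genes measured, the splicing regulators Esrp1 and Esrp2 counted with them, 16 rose and 12 fell. Each of the falls was at 2-fold or more. Rises were seen in the epithelial splicing regulators Esrp1 and Esrp2, which set epithelial exon choice, and in Foxa1, Foxa2, Cebpa, Elf3, Grhl2, Klf5 and the lung Iroquois genes Irx1, Irx2 and Irx3. Esrp1 read 96.1, 71.3 and 125 on the knockout arrays and 796, 684 and 874 with GSH (log2 difference 3.04, SE 0.18, limma adjusted p = 1.1e-06). Foxa1, a forkhead factor of lung epithelium, read 319, 329 and 282 on the knockout arrays and 1467, 1317 and 1239 with GSH (log2 difference 2.11, SE 0.10, limma adjusted p = 2.8e-07). Both were higher on every GSH array. Falls were seen in Prrx1, Snai2, Snai1, Zeb1, Twist1 and Twist2, factors of mesenchymal cells, in the lung mesenchyme genes Tbx4, Tbx2, Tcf21, Foxf1 and Foxf2, and in Gata6. Tbx2 was above the control level on 1 of 3 GSH arrays and Tbx4 on 2 of 3. Prrx1 read 2133, 2164 and 2459 on the knockout arrays and 192, 158 and 168 with GSH (log2 difference -3.71, SE 0.12, limma adjusted p = 2.3e-08). Zeb1, a repressor of E-cadherin, read 1346, 1522 and 1005 on the knockout arrays and 395, 392 and 261 with GSH (log2 difference -1.89, SE 0.10, limma adjusted p = 6.3e-07). Their GSH arrays lay below every knockout array. Zeb2, a relative of Zeb1 that macrophages also express, went the other way by 0.31 (limma adjusted p = 0.033).

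Integrins and basement membrane genes split along the same line. Itgb4, the beta 4 subunit of hemidesmosomes, rose from 109 ± 15 to 877 ± 69.9 (log2 difference 3.02), with its partner Itga6 (1.45), the laminin receptor Itga3 (1.65) and Itgb6 (1.63), which activates latent TGF-beta. Itga8 (-2.22) and Itga1 (-1.34), found on mesenchymal cells, fell. Over 15 integrin subunits 8 rose and 5 fell. Among 20 basement membrane genes 7 rose and 11 fell. The epithelial laminin chains Lamb3 (2.36) and Lama3 (1.38), Lama5 (0.90), agrin (Agrn, 0.94) and the collagen IV chains Col4a3 (1.58) and Col4a4 (2.22) of alveolar epithelium rose. Lama4 (-3.40), the nidogens Nid1 (-2.08) and Nid2 (-3.24) and the common collagen IV chains Col4a1 (-1.78) and Col4a2 (-1.56) fell. The GSH signal of Nid2 was above the control level on 2 of 3 arrays, so the size of its fall rests partly on background. Within the collagen IV family the mean signal of Col4a1 went from 8582 to 2508 and Col4a3 from 201 to 597.

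Genes of the interstitial matrix fell. Of 25 fibrillar collagen and collagen assembly genes 23 fell, 17 at 2-fold or more, and 0 rose (median -1.80). Col3a1, the chain of collagen III, read 12963, 15159.8 and 12488 on the knockout arrays and 1156, 1100 and 1267 with GSH, 11.5-fold lower (log2 difference -3.52, SE 0.09, limma adjusted p = 1.4e-08). Col1a1, the main chain of collagen I, read 20403, 26478 and 13652 on the knockout arrays and 7085, 6379 and 4407 with GSH (log2 difference -1.74, SE 0.10, limma adjusted p = 1.2e-06). All GSH arrays of both genes lay below all knockout arrays, and Col3a1 lay far below its wild-type mean of 9720. The processing genes Pcolce (-2.97), Loxl1 (-2.87) and Serpinh1, the collagen chaperone (-1.30), fell with them, and Lox, lysyl oxidase, fell by 0.35. Of 23 proteoglycan and matricellular genes 20 fell and 0 rose (median -1.63). Dcn, decorin, read 14554, 16196 and 11744 on the knockout arrays and 1778, 1865 and 1868 with GSH (log2 difference -2.93, SE 0.10, limma adjusted p = 2.8e-08). Its GSH arrays lay low and close together. Prelp fell by 3.33, and periostin (Postn, -2.93), versican (Vcan, -2.71) and tenascin C (Tnc, -1.70) fell with it. Fn1, fibronectin, was an exception at 20538 and 21634 (log2 difference 0.08, limma adjusted p = 0.57), as were the fibroblast-list members Vim, vimentin (-0.08, limma adjusted p = 0.51), which macrophages also express, and S100a4, which rose by 0.31. Of 20 matrix metalloproteinase and inhibitor genes 2 rose and 12 fell. Stromelysins Mmp3 (3276 to 290) and Mmp10 (2874 to 335), the aggrecanases Adamts1, Adamts4 and Adamts5 and the inhibitors Timp1, Timp2 and Timp3 fell, and Mmp9 (0.59) and the urokinase receptor Plaur (0.61) rose. These falls stand beside the drop in the fibroblast marker sum given above, which shares Col1a1, Col3a1, Dcn and other genes with these lists, and the part of a changed cell mix in them was not tested.

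**Figure D4:**
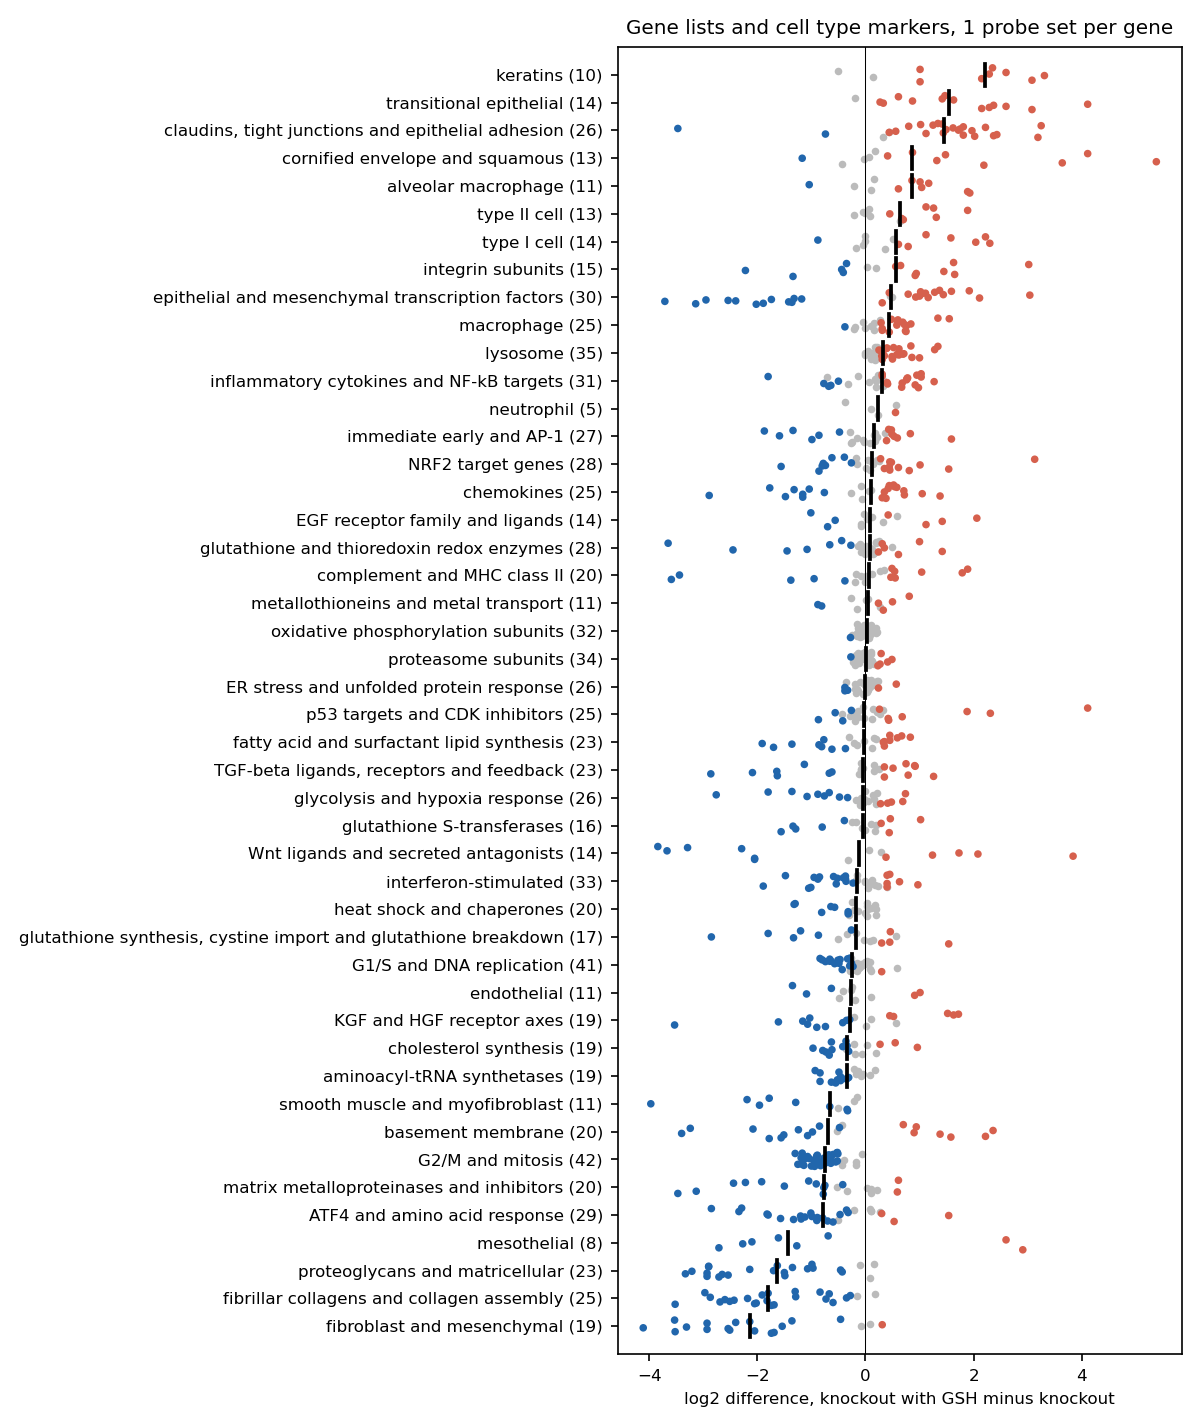
Log2 difference (horizontal axis, GSH minus no GSH) of each measured gene in the pathway and marker lists, 1 point per gene, red where called higher, blue where called lower and grey where not called; the black bar is the list's median and the number of genes measured stands in brackets. Keratins (median 2.22) and transitional epithelial genes (1.55) sit at the top and fibroblast genes (-2.14) at the bottom.

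Genes of the amino acid response fell. ATF4 is the transcription factor that cells translate when amino acids, cysteine among them, run short, and it switches on amino acid synthesis, amino acid import and tRNA charging. Of 29 genes of this response 20 fell, 11 at 2-fold or more, and 3 rose (median -0.79, against a background of 17.4% lower). Cth, the enzyme that makes cysteine from cystathionine, read 1502, 1522 and 1774 on the knockout arrays and 192, 194 and 289.7 with GSH. All GSH arrays lay far below all knockout arrays, which were near the wild-type mean of 1616 (7.22-fold lower, log2 difference -2.85, SE 0.12, limma adjusted p = 8.9e-08). Asns, asparagine synthetase, read 4444, 4313 and 4787 on the knockout arrays and 1838, 1898 and 2199.5 with GSH (log2 difference -1.19, SE 0.07, limma adjusted p = 1.1e-06). Psat1, an enzyme of serine synthesis, read 3814, 3471 and 4827 on the knockout arrays and 1109, 1314 and 1659.9 with GSH (log2 difference -1.57, SE 0.09, limma adjusted p = 6.6e-07). Chac1, a gamma-glutamyl cyclotransferase that degrades glutathione, read 929.9, 739 and 740.1 on the knockout arrays and 281, 310.3 and 366 with GSH (log2 difference -1.33, SE 0.15, limma adjusted p = 7.9e-05). In each of these the groups stood apart. Phgdh (-0.79) and Psph (-0.89), the other enzymes of serine synthesis, fell as well, and so did the mitochondrial one-carbon enzymes Shmt2 (-1.12), Mthfd2 (-0.99) and Aldh1l2 (-2.29) and Aldh18a1 of proline synthesis (-1.20). The importers Slc7a5 of large neutral amino acids (-1.80), Slc7a3 of cationic ones (-1.82) and Slc6a9 of glycine (-1.01) fell. Atf4 itself fell (-0.60), with Ddit3, which encodes CHOP (-0.90), and the lipoprotein receptor gene Vldlr (-2.34).

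The cystine importer moved the other way: Slc7a11 read 139.6, 135 and 122 on the knockout arrays and 383, 406 and 366 with GSH. Every GSH array lay above every knockout array and below the wild-type mean of 648 ± 15.6 (2.91-fold higher, log2 difference 1.54, SE 0.17, limma adjusted p = 6.4e-05). Its partner chain Slc3a2 rose by 0.30 and Atf3 by 0.53. Trib3, Ddit4, Stc2, Cebpg, Cebpb and Sesn2 did not pass the test. The tRNA synthetases, which charge tRNA with amino acids, had 12 lower and 0 higher of 19, with a median of -0.35 and no member at 2-fold. Yars, tyrosyl-tRNA synthetase, read 1124, 1025 and 1126 on the knockout arrays and 600.4, 562 and 556 with GSH (log2 difference -0.93, SE 0.10, limma adjusted p = 5.7e-05). Tars, threonyl-tRNA synthetase, read 2491, 2588 and 2872 on the knockout arrays and 1358, 1557 and 1531 with GSH (log2 difference -0.84, SE 0.08, limma adjusted p = 3.4e-05). Both were lower on each GSH array. Nars, Sars, Qars, Farsa, Farsb, Rars and Wars did not pass the test. The amino acid response ran with the fibroblast marker sum, lower with GSH in both, and the part of the cell mix in it was not tested.

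**Figure D5:**
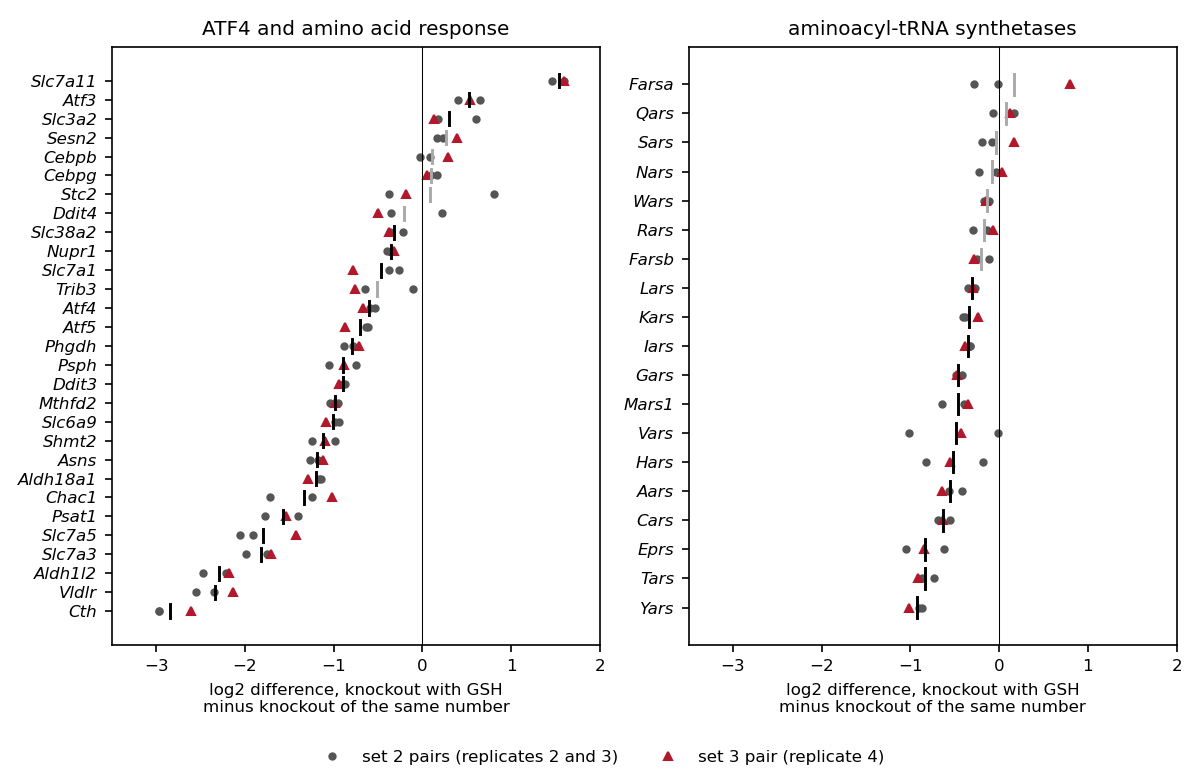
Log2 difference (horizontal axis) of GSH minus no GSH for each gene of the amino acid response (left) and each tRNA synthetase (right), as the difference within each same-numbered pair: grey circles for the pairs of set 2, red triangles for that of set 3, and a bar for the fitted value, black where called. The 3 pairs lie close together at the low end, from Cth (-2.85) upward, and Slc7a11 stands alone at the high end (1.54).

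Promoters are shown for 5 genes of these lists because they hold the core of the amino acid response element, the composite site bound by ATF4 with a C/EBP partner. The sequences are from RefSeq on build GRCm38.p6, run 5′ to 3′ on the gene's strand from 250 bases before to 50 after the start, and capitals mark each match to TGATGNAA on either strand. They lie at chr6:7693160-7693459, minus strand for Asns; chr2:119350992-119351291, plus strand for Chac1; chr4:129189653-129189952, plus strand for Yars; chr15:11399609-11399908, minus strand for Tars; and chr3:50443564-50443863, minus strand for Slc7a11. Of the amino acid response genes tested, 25 had a promoter in the table and 7 of these held a match (Atf3, Trib3, Chac1, Asns, Slc7a11, Vldlr and Nupr1), as did 5 of 12 tRNA synthetases (Aars, Gars, Iars, Tars and Yars). The same letters occur in 2.7% of the 9387 measured genes with a promoter there, counting any window of a gene, and in 3.97% of all 32851 promoters. Among the genes that fell the match was in 4 of 16 of the first list and 5 of 8 of the second. Slc7a11, which rose, holds 2. A match is a description of the sequence and does not show binding.
Asns: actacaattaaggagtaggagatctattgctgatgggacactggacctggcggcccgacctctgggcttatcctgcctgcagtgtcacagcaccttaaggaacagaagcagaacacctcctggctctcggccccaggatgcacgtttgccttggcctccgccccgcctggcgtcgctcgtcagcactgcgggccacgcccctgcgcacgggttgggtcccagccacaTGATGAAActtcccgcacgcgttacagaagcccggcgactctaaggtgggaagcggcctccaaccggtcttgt
Chac1: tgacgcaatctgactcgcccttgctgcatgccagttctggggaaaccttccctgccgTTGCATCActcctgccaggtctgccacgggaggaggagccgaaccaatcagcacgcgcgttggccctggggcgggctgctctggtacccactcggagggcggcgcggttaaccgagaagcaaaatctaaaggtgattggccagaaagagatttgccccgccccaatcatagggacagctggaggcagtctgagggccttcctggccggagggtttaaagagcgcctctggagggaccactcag
Yars: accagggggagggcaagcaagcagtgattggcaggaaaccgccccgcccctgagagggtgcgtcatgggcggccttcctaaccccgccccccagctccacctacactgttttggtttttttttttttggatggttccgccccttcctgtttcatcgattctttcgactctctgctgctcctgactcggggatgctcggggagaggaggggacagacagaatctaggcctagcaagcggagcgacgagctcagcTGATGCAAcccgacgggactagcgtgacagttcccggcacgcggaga
Tars: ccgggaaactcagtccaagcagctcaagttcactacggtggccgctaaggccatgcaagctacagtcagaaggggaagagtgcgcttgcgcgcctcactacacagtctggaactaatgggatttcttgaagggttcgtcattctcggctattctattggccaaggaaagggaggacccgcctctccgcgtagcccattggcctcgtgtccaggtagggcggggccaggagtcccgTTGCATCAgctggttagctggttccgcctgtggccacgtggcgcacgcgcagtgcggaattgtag
Slc7a11: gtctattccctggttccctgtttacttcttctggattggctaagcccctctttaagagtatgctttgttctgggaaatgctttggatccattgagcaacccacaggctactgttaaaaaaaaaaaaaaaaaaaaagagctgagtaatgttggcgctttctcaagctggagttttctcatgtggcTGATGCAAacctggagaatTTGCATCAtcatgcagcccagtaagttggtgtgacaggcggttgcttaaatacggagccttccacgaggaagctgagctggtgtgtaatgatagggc

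Genes of glutathione metabolism itself did not move as a group. Of 17 genes of synthesis, cystine import and breakdown 4 rose and 6 fell (median -0.18). Gclc and Gclm encode the subunits of the rate-limiting ligase, and Gss the enzyme that completes the tripeptide. Gclc read 336, 327 and 305 on the knockout arrays and 509, 516 and 327 with GSH, a rise that passed the threshold narrowly, with GSH replicate 4 inside the knockout range (log2 difference 0.45, SE 0.15, limma adjusted p = 0.044). Gclm read 899, 479 and 1002 on the knockout arrays and 871, 648 and 895 with GSH, with broad overlap (log2 difference 0.08, SE 0.21, limma adjusted p = 0.82), and Gss differed by 0.14 (limma adjusted p = 0.36). Besides Cth and Chac1, Dpep1, a dipeptidase that cleaves cysteinylglycine, fell by 1.20, and Anpep, an aminopeptidase that does so too, rose by 0.46. Anpep kept its call in 13 of 17 alternatives and lost it with no block, in set 2 alone and without replicate 4 of either group. Without the signal filter, or without knockout replicate 2, GSH replicate 2 or GSH replicate 3, 2 genes of this list were called higher in place of 4.

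Known NRF2 target genes went both ways in cells that lack Nrf2. Of 28 measured, 11 rose and 8 fell, with a median of 0.12. Without GSH replicate 3 the counts were 7 and 7. With all kept probe sets of each gene counted, 19 of 47 were higher and 8 lower. Osgin1, an oxidative stress-induced growth inhibitor, read 63.7, 23.2 and 76.4 on the knockout arrays and 396, 492 and 387 with GSH, an 8.74-fold rise from a signal above the control level on 2 of 3 knockout arrays (log2 difference 3.13, SE 0.39, limma adjusted p = 0.00017). Hmox1, heme oxygenase 1, read 3548, 4064 and 4582 on the knockout arrays and 6723, 7395 and 7208 with GSH (log2 difference 0.81, SE 0.09, limma adjusted p = 6.8e-05). Gsr, glutathione reductase, read 3594, 2903 and 3394 on the knockout arrays and 4741, 5214 and 5134 with GSH (log2 difference 0.61, SE 0.09, limma adjusted p = 0.00059). These 3 were higher on every GSH array. Akr1c13 (1.01), Me1 (0.45) and Txnrd1 (0.35), which supply or use NADPH, rose too. Nqo1, the quinone reductase that is a standard reporter of Nrf2, read 277, 281 and 309 on the knockout arrays and 174, 122 and 188 with GSH, so it was lower on every GSH array and further below its wild-type mean of 492 (log2 difference -0.86, SE 0.20, limma adjusted p = 0.0074). Gstm2, a mu-class glutathione S-transferase, read 1837, 1673 and 1848 on the knockout arrays and 659.7, 639 and 529 with GSH (log2 difference -1.56, SE 0.10, limma adjusted p = 2.4e-06). Gstp1 (-0.80), Ephx1 (-0.78), Akr1b8 (-0.74) and Ugdh (-0.62) fell. Srxn1, sulfiredoxin, read 820.4, 768 and 981 without and 804, 886 and 889 with GSH (log2 difference 0.01, limma adjusted p = 0.95). The antioxidant response element core TGACNNNGC was found on either strand in the promoters of 8 of 24 genes of this list, against 16.9% of measured genes and 12.4% of all promoters.

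The glutathione S-transferases had 4 higher and 5 lower of 16, and 2 higher without GSH replicate 2 or without replicate 4 of either group. Gstm5 (-1.29) and Gstt1 (-1.34) fell with Gstm2, and Mgst2 (1.02), Mgst3 (0.46), Gstm1 (0.44) and Gsto1 (0.29) rose. Of 28 glutathione and thioredoxin redox enzymes 6 rose and 7 fell, and 3 rose without replicate 4 of either group. Sod3, the extracellular superoxide dismutase, read 2249, 2617 and 1607 on the knockout arrays and 150.4, 175 and 181 with GSH. All knockout arrays lay far above all GSH arrays and above the wild-type mean of 226 (12.6-fold lower, log2 difference -3.65, SE 0.16, limma adjusted p = 1.5e-07). Gpx7, a glutathione peroxidase of the endoplasmic reticulum, read 1521, 1592 and 1723 on the knockout arrays and 324, 235 and 334 with GSH (log2 difference -2.45, SE 0.13, limma adjusted p = 4.9e-07). Its relative Gpx8 (-1.08), the secreted peroxidase Gpx3 (-1.45) and Prdx4 (-0.66) fell as well. Msrb1, which repairs oxidised methionine, read 3920.1, 4271 and 3976 on the knockout arrays and 8567, 8124 and 7613 with GSH (log2 difference 1.00, SE 0.07, limma adjusted p = 4.8e-06). Gpx2, the epithelial glutathione peroxidase, read 81.4, 108 and 75.7 on the knockout arrays and 237, 272 and 199 with GSH (log2 difference 1.42, SE 0.22, limma adjusted p = 0.00079). The groups of both were apart, in the upward direction. Sod2 rose by 0.31, and Sod1, Cat, Gpx4, Txn1 and Glrx did not pass the test. Of 11 metallothionein and metal transport genes 4 rose and 2 fell, but 2 rose without GSH replicate 2 or GSH replicate 3 and 4 fell without knockout replicate 2. Mt1, a metallothionein, was at 0.33 and lost its call in each of those 3 cases. With all kept probe sets of each gene counted, 6 of 24 in this list were higher and 9 lower. The zinc importers Slc39a14 and Slc39a8 were at -0.88 and -0.81.

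Genes of cell division fell. Of 42 G2/M and mitosis genes 37 fell, 10 at 2-fold or more, and 0 rose (median -0.75). Plk1, the kinase that drives mitotic entry, read 1354, 1342 and 1079.5 on the knockout arrays and 648, 578 and 391 with GSH (log2 difference -1.25, SE 0.11, limma adjusted p = 1.3e-05). Cdc20, an activator of the anaphase-promoting complex, read 3409, 3227 and 3898 on the knockout arrays and 1468, 1565 and 1756 with GSH (log2 difference -1.14, SE 0.07, limma adjusted p = 1.9e-06). Ube2c, that complex's ubiquitin-conjugating enzyme, read 3972, 4218 and 3349 on the knockout arrays and 1788, 1732 and 1583 with GSH (log2 difference -1.17, SE 0.07, limma adjusted p = 1.7e-06). All 3 were lower on each GSH array, and each GSH array was also below the wild-type mean (1139 for Plk1, 3095 for Cdc20 and 2556 for Ube2c). Hmmr (-1.30), the kinesin gene Kif2c (-1.14) and Cdk1 (-0.83) fell as well. Mki67, the proliferation marker Ki-67, read 2993, 3457 and 3620.5 on the knockout arrays and 3204, 3102 and 3348 with GSH, with overlap (log2 difference -0.06, SE 0.08, limma adjusted p = 0.64), and both groups were above the wild-type mean of 1267. The other 4 genes that missed the threshold were Bub3, Cdc25b, Cdc25c and Kif23. G1/S and replication genes had 1 higher and 16 lower of 41 (median -0.24), and without replicate 4 of either group 0 and 9. Thymidine kinase (Tk1, -0.84) and the primase Prim1 (-0.80) fell, 0 members fell 2-fold, and Pcna, the replication clamp, read 11549 and 11497. Ccnd1, cyclin D1, rose by 0.30. The part of the falling fibroblast markers in these changes was not tested.

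The promoters of Plk1 and Cdc20 are shown because they carry TTTGAA, the core of the cell cycle homology region through which the DREAM complex and MuvB act on mitotic genes; capitals mark the match, and the source, build and window are as above. They lie at chr7:122159185-122159484, plus strand, and chr4:118437294-118437593, minus strand, in that order. Of 36 mitosis genes with a promoter in the RefSeq table, 26 hold TTTGAA or its reverse complement, 23 of the 32 that fell among them, against 14.2% of measured genes and 17.9% of all promoters.
Plk1: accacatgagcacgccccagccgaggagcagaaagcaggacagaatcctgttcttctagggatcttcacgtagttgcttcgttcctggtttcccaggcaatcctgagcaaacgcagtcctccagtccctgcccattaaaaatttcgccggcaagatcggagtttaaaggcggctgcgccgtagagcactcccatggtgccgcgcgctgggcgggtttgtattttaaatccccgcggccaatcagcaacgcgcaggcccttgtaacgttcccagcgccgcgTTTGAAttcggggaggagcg
Cdc20: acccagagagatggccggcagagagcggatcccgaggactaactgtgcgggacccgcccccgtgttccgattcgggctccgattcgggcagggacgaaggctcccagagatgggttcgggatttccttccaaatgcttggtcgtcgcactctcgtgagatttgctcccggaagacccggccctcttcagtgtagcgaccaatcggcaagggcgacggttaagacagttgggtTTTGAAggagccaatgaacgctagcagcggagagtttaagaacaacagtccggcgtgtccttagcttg

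Among metabolic genes, lipid synthesis fell in part. Of 19 cholesterol synthesis genes 3 rose and 10 fell (median -0.34). Cyp51, the lanosterol demethylase, read 1516, 1447 and 1815 on the knockout arrays and 751, 781 and 905 with GSH, lower on each GSH array (log2 difference -0.97, SE 0.08, limma adjusted p = 1.3e-05). Fdft1 (-0.79), Idi1 (-0.73), Hmgcs1 (-0.67) and the regulator Srebf2 (-0.63) fell, and the late enzymes Dhcr7 (0.55) and Tm7sf2 (0.96) rose. Fatty acid and surfactant lipid genes had 8 higher and 8 lower of 23. The desaturases Fads2 (-1.91), Fads1 (-1.36), Scd2 (-0.81) and Scd1 fell. Scd1, the stearoyl-CoA desaturase, read 3022, 2944 and 3484 on the knockout arrays and 1006, 894 and 995 with GSH (log2 difference -1.70, SE 0.08, limma adjusted p = 2.8e-07). The surfactant lipid genes Lpcat1 (0.45), Abca3 (0.67), Pcyt1a (0.33) and Chka (0.35) rose, as did Dgat1 of triglyceride synthesis (0.83). Of 26 glycolysis and hypoxia response genes 5 rose and 9 fell. Adm, the vasodilator peptide adrenomedullin, read 5414, 6349.7 and 5881 on the knockout arrays and 878, 918 and 811 with GSH. The GSH arrays lay below the knockout arrays and below the wild-type mean of 1575 (6.76-fold lower, log2 difference -2.76, SE 0.09, limma adjusted p = 2.2e-08). P4ha2 (-1.80) and P4ha1 (-0.67), the prolyl hydroxylases of collagen, Ndrg1 (-1.36), Bnip3 (-1.08) and Vegfa (-0.88) fell, while Pfkfb4 (0.69), Pfkfb3 (0.48), Hk2 (0.28) and Car9 (0.74) rose. The glycolytic enzymes Ldha, Pgk1, Pkm and Aldoa did not pass the test.

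Respiration, the proteasome and the unfolded protein response gave few calls. Of 32 oxidative phosphorylation subunits 1 fell (Ndufa5, -0.29) and 0 rose by limma at an adjusted p under 0.05. The groups of Ndufa5 overlapped, and its call was lost without knockout replicate 3, GSH replicate 2 or replicate 4 of either group. Of 34 proteasome subunits 5 rose and 1 fell, led by the immunoproteasome subunit Psmb9 (0.49); without GSH replicate 3, or replicate 4 of either group, 3 rose and 0 fell. Of 26 ER stress genes 2 rose and 3 fell (1 rose when any 1 array but knockout replicate 3 was left out), with Hspa5, the chaperone BiP, at 14595 and 14052 (limma adjusted p = 0.67). Of 20 heat shock genes 0 rose and 7 fell, among them the small heat shock genes Cryab (-1.32) and Hspb8 (-0.81). Lysosomal genes rose in contrast: 22 of 35 were higher and 0 lower (median 0.32). Gpnmb, a glycoprotein of lysosome-rich macrophages, read 6432, 6756 and 7112 on the knockout arrays and 18066, 17228 and 16143 with GSH (log2 difference 1.34, SE 0.08, limma adjusted p = 1.1e-06). Atp6v0d2, a subunit of the lysosomal proton pump, read 2037, 2111 and 2435 on the knockout arrays and 5355, 5146 and 5467 with GSH (log2 difference 1.28, SE 0.07, limma adjusted p = 8.5e-07). Both were higher on every GSH array than on any knockout or wild-type array. The cathepsins Ctsh (1.00) and Ctsk (0.86) and the phosphatase Acp5 (0.84), abundant in macrophages, also rose, and the macrophage marker sum given above was higher beside them. That sum includes Gpnmb, and Ctsk is also on the alveolar macrophage list, so these rises are not separate results. The part of macrophages in this change was not tested.

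Growth factor genes changed at the level of ligands and receptors. In the KGF and HGF axes 5 of 19 genes rose and 10 fell. Fgf7, which encodes keratinocyte growth factor, the factor also added to the medium, read 1915, 2013 and 1852 on the knockout arrays and 138, 204 and 163 with GSH. The GSH arrays were all far lower (11.6-fold, log2 difference -3.53, SE 0.15, limma adjusted p = 1.0e-07). Fgf7 is also on the fibroblast marker list above, so its fall is not a separate result. The part of a changed cell mix in it was not tested. The Fgf7 receptor gene Fgfr2 fell by 0.90, and the feedback inhibitors Spry2 (-1.61) and Spry4 (-1.16) fell too. The epithelial protease inhibitors Spint1 (1.63) and Spint2 (1.72) and their target protease St14, matriptase (1.52), rose. Among 14 genes of the EGF receptor family 4 rose and 3 fell. Hbegf, heparin-binding EGF-like growth factor, read 1392, 1446 and 864 on the knockout arrays and 3758, 3686 and 2384 with GSH (log2 difference 1.42, SE 0.07, limma adjusted p = 4.2e-07). Nrg1, neuregulin 1, read 75.6, 70.9 and 123 on the knockout arrays and 336, 323 and 444 with GSH (log2 difference 2.06, SE 0.19, limma adjusted p = 2.4e-05). Both groups of arrays were apart within each gene. Erbb3, the receptor for Nrg1, rose by 1.12 and Egfr fell by 0.70. Of 14 Wnt ligands and antagonists 5 rose and 6 fell. Wnt7a, Wnt7b (1.24), Wnt9a (2.08) and Wnt10a (1.73) rose, and Wnt5a (-2.05), Wnt4 (-2.05), Rspo3 and the antagonists Sfrp1 (-3.67), Dkk3 (-3.29) and Frzb (-2.29) fell. TGF-beta genes had 8 higher and 7 lower of 23. The co-receptor Tgfbr3 fell from 4303 ± 590 to 588 ± 11.2 (-2.86), the ligand Tgfb3 (-1.63) and the latency protein Ltbp2 (-2.09) fell too, while Tgfb2 (1.26), Tgfbr1 (0.79) and the target Tgfbi (0.91) rose.

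More inflammatory genes were called higher than lower, and more interferon genes lower than higher. The 31 inflammatory genes (cytokines and NF-kB targets) had 15 higher and 5 lower (median 0.31). Icam1, a leukocyte adhesion molecule, read 1956, 1978 and 2184 on the knockout arrays and 4057, 4181 and 4262 with GSH (log2 difference 1.03, SE 0.07, limma adjusted p = 2.9e-06). Tlr2, a receptor for bacterial lipoproteins, read 3318, 3502 and 3860.2 on the knockout arrays and 6897, 7552 and 7315 with GSH (log2 difference 1.03, SE 0.08, limma adjusted p = 5.1e-06). Both were higher on every GSH array. Il1b (0.67), Il1a (0.98), Lcn2 (0.95), Il18 (0.92) and Ptgs2 (0.78) rose, and Il6 (-0.68), Csf1 (-0.77) and Vcam1 fell. Vcam1, the vascular cell adhesion molecule that fibroblasts also carry, read 10766, 10539 and 11096 on the knockout arrays and 2998, 2776 and 3579 with GSH (log2 difference -1.80, SE 0.08, limma adjusted p = 1.5e-07), with GSH low throughout. Of 25 chemokines 12 rose and 8 fell. Cxcl12, a chemokine of stromal cells, read 5566, 5870.3 and 6258 on the knockout arrays and 829.5, 739.7 and 826 with GSH (log2 difference -2.89, SE 0.08, limma adjusted p = 1.4e-08), far lower on each GSH array. Ccl12 (-1.77), Cxcl10 (-1.48), Ccl7 (-1.32), Cxcl14 (-1.16) and Cxcl5 (-1.16) fell too, and Cxcl11 (1.38) and Cxcl16 (1.05) rose, so the interferon-induced chemokines Cxcl10 and Cxcl11 went opposite ways. Of 33 interferon-stimulated genes 6 rose and 15 fell (median -0.16). Ifit1, an interferon-induced RNA-binding protein, read 6252, 7002 and 6392 on the knockout arrays and 3396, 3225 and 2899.8 with GSH, lower on each GSH array and still above the wild-type mean of 1377 (log2 difference -1.05, SE 0.08, limma adjusted p = 5.0e-06). Ifit3 (-1.01) and the GTPase genes Gbp2 (-0.95), Gbp3 (-0.85) and Ifi47 (-0.88) fell, and Oas3 (0.97), Irf8 (0.63) and Rsad2 (0.40) rose.

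Complement and antigen presentation parted. C1s1, a serine protease of the first complement component, read 1965, 2203 and 2372 on the knockout arrays and 150.5, 176 and 221 with GSH (log2 difference -3.59, SE 0.12, limma adjusted p = 2.8e-08). Its inhibitor Serping1 (-3.44) and C1ra (-1.38) fell, whereas the C1q chains C1qa and C1qb, made by macrophages, did not pass the test and C1qc fell by 0.38. Cd74, an MHC class II chaperone, read 786, 783 and 739 on the knockout arrays and 2798, 2848 and 2925 with GSH (log2 difference 1.89, SE 0.08, limma adjusted p = 9.6e-08). H2-Aa (1.79), H2-Ab1 (1.04) and H2-Eb1 (0.54) rose with it. For C1s1 and Cd74 the groups did not overlap, in opposite directions. Immediate early genes had 8 higher and 6 lower of 27. Egr2, a zinc finger transcription factor, read 542, 523 and 645 on the knockout arrays and 1593, 1704 and 1829 with GSH (log2 difference 1.59, SE 0.09, limma adjusted p = 7.0e-07), and Nr4a1, an orphan nuclear receptor, fell from 2099 ± 57.6 to 578 ± 67.5 (-1.87). The krüppel-like genes Klf2 (-1.59) and Klf4 (-0.86) fell, and Fos and Jun did not pass the test. Of 25 p53 targets and CDK inhibitors 7 rose and 4 fell. Sfn, Pmaip1, which encodes the death protein Noxa (2.31), and Perp, a desmosome protein (1.88), rose at 2-fold or more, whereas Cdkn1a, the inhibitor p21, differed by -0.20 (limma adjusted p = 0.076), and Mdm2 by 0.12 (limma adjusted p = 0.26). Without replicate 4 of either group 1 gene of that list fell, and 2 fell without GSH replicate 3.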

How the data were processed

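RNA of each sample was amplified, labelled and hybridised to 1 single-colour Affymetrix array, per the labels' protocols. The deposited table holds 1 linear intensity per probe set and array, already summarised and scaled by the authors; no source used here names the software. Of 45101 probe sets 64 controls were left out. Intensities below 0.1 (1 value, at 0) were set to 0.1, log2 values were taken, and probe sets whose mean over the 6 arrays reached the median of all probe sets were kept, 22519 in number. Differences were fitted with limma 3.58.1 (R 4.3.3) on group and set, with moderated variances following an intensity trend and Benjamini-Hochberg adjustment over all kept probe sets. The fit was tested on simulated data. Arrays have no read depth; their number, 3 in each group, limits the precision. The control level of an array was the 95th percentile of 27 unspiked bacterial control probe sets. Probe sets were named from the platform annotation: 34945 carried 1 symbol, 932 several and 9160 none, and 34741 of the first matched RefSeq by gene identifier.

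The comparison, the gene lists and the marker lists were chosen with earlier results of these data known. The rule for naming genes took all probe sets of Nfe2l2, the 12 strongest called changes each way whose 9 pairwise differences had the same direction and whose brighter group lay above the control level, and, from every list, at most 5 genes ranked by p; other members named were chosen after their values were seen. Probe sets whose identifier ends in _x_at or _s_at may bind related transcripts, which leaves the genes they read uncertain: Aars, Acta2, Aldh18a1, Aldoa, Bub3, C1s1, Cdc20, Cdc25c, Dgat1, Farsb, Fgfr2, Gstm1, Gsto1, Gzme, H2-Aa, H2-Ab1, Hmgcs1, Kif2c, Lce1h, Lpcat1, Lyz1, Mt1, Ndrg1, Pgk1, Phgdh, Prelp, Qars, Sbsn, Shmt2, Snai2, Srxn1, Tgfbi, Trem2, Trib3, Upk3b, Vldlr, Wars, Wt1 and the brightest Xist probe set.

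Same-numbered arrays of both groups deviated together (correlations 0.332, 0.295 and 0.678 for numbers 2, 3 and 4), but so did differently numbered arrays within set 2 (0.409 and 0.249), while arrays of different sets ran from -0.529 to -0.381. Within set 2 the same number therefore gave no closer match than a different one, and the set was the block. Deviations were taken from each group's mean, so positive values within a set bring negative ones between sets. Alternatives were other signal filters, all 9 arrays in the fit, quantile normalisation, median centring, adding 32 before log2, no intensity trend, the replicate number as block, no block, set 2 alone, leaving out each array, other call rules, and counting all probe sets of a gene.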

Additional observations from a re-analysis of the deposited data

How the results depend on the processing

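No alternative turned the direction of a called difference among the named genes. Of the named probe sets that were tested, 221 were called; with no block 16 of these calls were lost, with no intensity trend 9, in set 2 alone 9 and with no signal filter 4. The number of probe sets called fell from 7005 to 3723 (1780 higher, 1943 lower) without a block, to 4563 (2262 higher) at an adjusted p under 0.01, and to 3193 (1489 higher, 1704 lower) by the rule of the series' design text, which asks for 1.5-fold in at least 6 of 9 pairwise comparisons and an unadjusted p. The smaller p is stricter by construction. The rule adds a fold condition but takes an unadjusted p, so its calls need not lie among the main ones. For the block the cause was not tested. A filter at the 70th percentile tested fewer probe sets and left 378 at 2-fold or more higher and 590 at 2-fold or more lower.

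Leaving out each array in turn gave 4969 to 6142 called, 2409 to 3332 higher, 2448 to 2895 lower, 696 to 838 at 2-fold or more higher and 988 to 1121 at 2-fold or more lower. The count of higher probe sets was lowest without the supplemented replicate 4; with either replicate 4 left out, the other array of set 3 is absorbed by the set term.

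With the replicate number as block, the pairing gave 6861 called (3627 higher, 3234 lower), and it changed no call of a named gene. Quantile normalisation gave 7103 and median centring 6993. Among the lists, without a block 14 lysosomal genes, 7 chemokines and 6 NRF2 targets were higher and 6 cholesterol genes and 10 of G1/S lower, and quantile normalisation called 4 respiratory subunits, 5 proteasome subunits and 5 ER stress genes lower. The 6 arrays, and signals near the control level, limit what could be detected among dim genes such as those of surfactant.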
